A study of Mus musculus with 12 samples.

Results

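miR-103-3p and miR-107-3p (mmu-miR-103-3p and mmu-miR-107-3p in the table) are the mature microRNAs (miRNAs) made from introns of the pantothenate kinase genes, and they were chosen by name as 2 of the 1900 mature miRNAs in a small RNA sequencing table of mouse gastrocnemius, the large calf muscle. The table held 12 libraries from male C57BL/6 mice, 6 from animals of 6 months (young) and 6 from animals of 24 months (aged), and the labels name no treatment or altered gene in either. Levels are FPKM, the reads of a mature miRNA scaled to its length and to the mapped reads of its library. Both members had a value above 0 in all 12 libraries, so both entered the test of 482 miRNAs that were above 0 in at least 5 libraries.

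A miRNA guides the silencing complex to messenger RNAs that pair with its seed, bases 2 to 8 from its 5′ end. Pantothenate kinases phosphorylate vitamin B5 in the first step of coenzyme A synthesis, and miR-103 and miR-107 lie within introns of Pank1, Pank2 and Pank3. In liver and fat they are known for lowering insulin sensitivity, with caveolin-1, a scaffold of the insulin receptor at the cell membrane, among their targets. Skeletal muscle takes up most of the glucose that insulin clears from the blood.

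The mature 3p strands are shown first because their likeness decides what the table can tell apart. Capitals mark the seed (RefSeq sequences, build GRCm38.p6).
miR-103-3p: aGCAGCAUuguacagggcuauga
miR-107-3p: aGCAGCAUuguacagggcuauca
The same 2 strands are repeated with only the base that differs in capitals.
miR-103-3p: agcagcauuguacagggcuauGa
miR-107-3p: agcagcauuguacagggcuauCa
They shared the seed and 22 of 23 bases, and the difference was G22C, counted from the 5′ end of miR-103-3p. The first 21 bases were identical, so a read of 21 bases or fewer from the 5′ end carries no information on which of the 2 miRNAs it came from. Among the 1603 mature miRNAs of the table with a RefSeq sequence, no other had the same seed.

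Mature miR-103-3p can come from 2 places in the genome. The copy of Mir103-1 lies at chr11:35782447-35782469 on the plus strand, within a hairpin in intron 5 of Pank3 (principal transcript of 7 exons, GENCODE M21, mm10). The copy of Mir103-2 lies at chr2:131288103-131288125 on the plus strand, in intron 5 of the principal transcript of Pank2, also of 7 exons. miR-107-3p comes from Mir107 at chr19:34820700-34820722 on the minus strand, in intron 5 of Pank1, again of 7 exons. All 3 hairpins lay on the strand of their host gene. The introns differed in length, with 1740 bases in Pank3, 5801 in Pank2 and 7282 in Pank1.

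The opposite (5p) arms of the hairpins are shown because they, unlike the 3p strands, differ between the copies of miR-103. Capitals mark their bases 2 to 8.
miR-103-1-5p: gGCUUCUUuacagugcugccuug
miR-103-2-5p: aGCUUCUUuacagugcugccuug
miR-107-5p: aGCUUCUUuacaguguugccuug
From miR-103-1-5p to miR-103-2-5p the difference was G1A, and from miR-103-2-5p to miR-107-5p it was C16U, each counted from the 5′ end of the first named.

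The table gave no reads, so they were estimated from the spacing of the low values. Once values were multiplied by miRNA length, 97.4% of 3214 low values (under 25 reads) came within 0.05 of a whole read or within 0.5% of it. The estimated miRNA reads ran from 198215 to 6244103 per young library and from 123008 to 7510960 per aged library. These totals are approximate. In young replicate 3 and aged replicates 2, 4 and 5 they exceeded the estimated mapped reads, by 123008 against 120404 in aged replicate 5. Apart from young replicate 6, every young library had at most 550035. Apart from aged replicate 5, every aged library had at least 1243812. Depth therefore ran largely with age. A single read of a 23-base miRNA was worth 361 FPKM in the shallowest library, aged replicate 5, and 5.60 FPKM in the deepest, aged replicate 3. Of the listed markers of muscle fibres, miR-499-5p was above 0 in 8 of 12 libraries and the others in all 12. Among the latter, miR-133a-3p averaged 5367290 FPKM in young and 4709740 FPKM in aged libraries.

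The first question was whether the level of either miRNA differed between young and aged muscle. miR-103-3p, the more abundant, differed between ages by less than the spread between libraries. So did miR-107-3p, whose level was 0.113 ± 0.0240 (SD, n = 12) of that of miR-103-3p. Since a whole muscle was sampled, fewer cells of a type and less RNA per cell cannot be told apart in these values.

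In young libraries the lowest value of miR-103-3p, summed over its 2 rows, was 14315 FPKM, the median was 14898 and the highest was 19026. In aged libraries the lowest was 14036 FPKM, the median 14973 and the highest 18886. The groups covered nearly the same range, with young replicate 4 and aged replicate 1 highest in their groups. Young muscle averaged 15722 ± 1804 FPKM (SD, n = 6), and aged muscle averaged 15622 ± 1723 FPKM (SD, n = 6). On the log2(FPKM + 48.2) scale the change, aged minus young, was -0.01 (SE 0.12, 95% interval -0.26 to 0.24), with a limma adjusted p of 0.990, and 4 of 6 aged libraries lay above the young median. The interval corresponds to a fold change between 0.837 and 1.18. An exact permutation test gave an unadjusted two-sided p of 0.907.

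For miR-107-3p the lowest young value was 1017 FPKM, the median 1678 and the highest 2272. The lowest aged value was 1618 FPKM, the median 1808 and the highest 2135. All 6 aged values fell inside the range of the young ones, and young replicates 1, 3 and 6 lay below every aged library. Young muscle averaged 1667 ± 508 FPKM (SD, n = 6), and aged muscle averaged 1857 ± 224 FPKM (SD, n = 6). The log2 change was 0.20 (SE 0.23, 95% interval -0.28 to 0.68), with a limma adjusted p of 0.760, and 4 of 6 aged libraries lay above the young median. In fold terms the interval ran from 0.825 to 1.60, so a rise of up to 1.60 times lies within it. The exact permutation p was 0.346, unadjusted and two-sided.

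Neither member had an adjusted p under 0.05 or an unadjusted p under 0.05 in the limma fit. Of all 482 miRNAs tested, 14 had an adjusted p under 0.05, which is 2.9% (0.622% higher and 2.28% lower with age). Without adjustment, 62 had a p under 0.05, which is 12.9%. The libraries of the 2 ages did not overlap for 2.7% of the 482. The median log2 change of all 482 was 0.07.

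**Figure D1:**
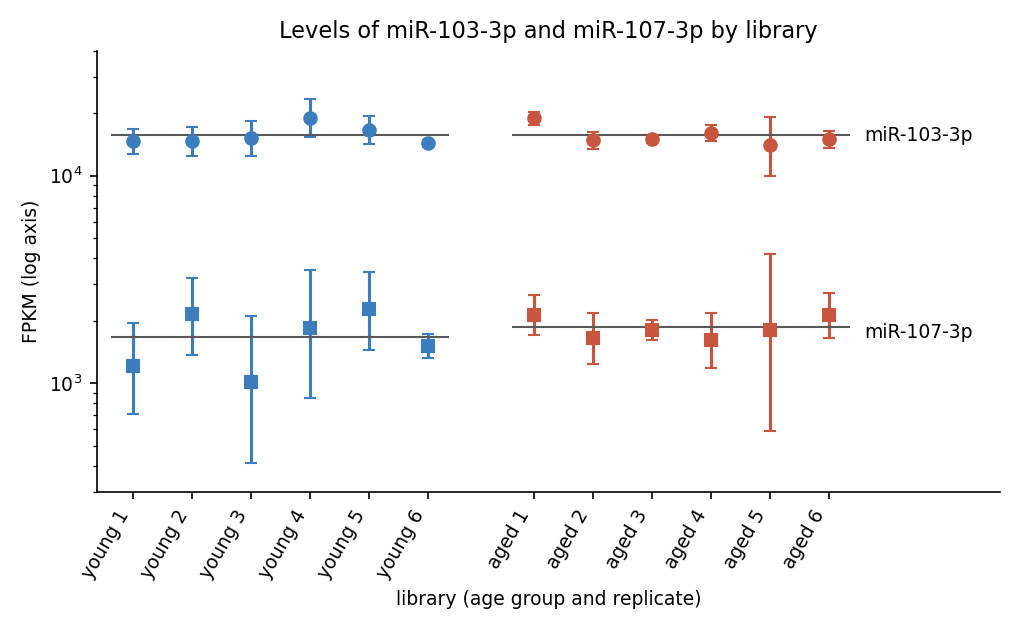
FPKM (log axis) of miR-103-3p (circles) and miR-107-3p (squares) in each of the 12 libraries, young in blue and aged in red. Bars are exact 95% Poisson intervals of the estimated reads, which cover counting error only, and grey lines are group means: the levels of miR-103-3p sit between 14036 and 19026 FPKM at both ages, and miR-107-3p has wide bars in young replicate 3, young replicate 4 and aged replicate 5.

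**Figure D2:**
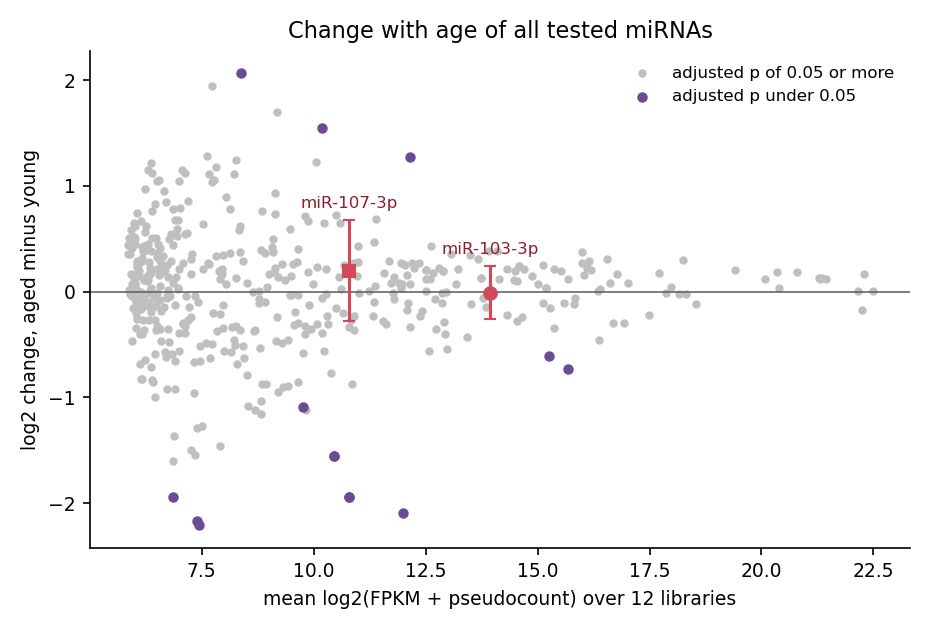
Log2 change with age (vertical axis) against the mean log2(FPKM + pseudocount) over 12 libraries (horizontal axis) for the 482 tested miRNAs, with an adjusted p under 0.05 in purple. The members are in red with their 95% intervals, both of which span 0, and miR-107-3p has the wider interval.

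The depth behind the 2 miRNAs was unequal. miR-103-3p had 93 to 2151 estimated reads per young library and 39 to 2672 per aged library. Those of miR-107-3p in young replicates 1 to 6 were 17, 23, 7, 9, 23 and 227. In aged replicates 1 to 6 they were 82, 52, 323, 46, 5 and 65. The spread of miR-107-3p in young muscle therefore came with few reads: the exact 95% Poisson interval of young replicate 3, the lowest, was 410 to 2103 FPKM, and that of young replicate 5, the highest, was 1448 to 3427 FPKM. These intervals cover counting error only, since reads copied during library amplification are not independent molecules. Young replicate 3, young replicate 4 and aged replicate 5 had under 10 reads of miR-107-3p. Without these 3 libraries (added once the data had been seen) the change of miR-107-3p was 0.10 (limma adjusted p = 0.849), less by over 1.5 times. Leaving out young replicate 3 alone gave 0.07 and leaving out young replicate 1 alone gave 0.12.

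Between libraries of the same age miR-103-3p varied little. Its within-group SD was 0.15 on the log2 scale, position 11 from the least variable among the 211 miRNAs with a mean of at least 482 FPKM. The median SD of those 211 was 0.33, and the SD of miR-107-3p was 0.34, position 113. These SDs include counting error, which grows as reads get fewer, and the positions were not matched for level.

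In the order of mean FPKM over the 12 libraries miR-103-3p was number 66 and miR-107-3p number 140. The neighbour above miR-103-3p was miR-199b-3p, with 16669 ± 2698 FPKM (SD, n = 12), and it was the higher of the pair in 7 of 12 libraries. The neighbour below was miR-25-3p with 15516 ± 2622 FPKM (SD, n = 12), which was above miR-103-3p in 6 of 12. Around miR-107-3p, at 1762 ± 387 FPKM (SD, n = 12), were miR-541-5p with 1820 ± 421 and miR-872-5p with 1741 ± 772 FPKM (SD, n = 12). They were above miR-107-3p in 7 and 5 of 12 libraries. In each case the mean log2 difference between neighbours was smaller than its SD over libraries, so these orders are not resolved. The place of miR-103-3p within a library ran from 63 to 69, and that of miR-107-3p from 130 to 164.

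The next question was whether the 2 miRNAs moved apart with age. The ratio of miR-107-3p to miR-103-3p, in FPKM, spanned 0.0672 to 0.147 over the young libraries and 0.101 to 0.142 over the aged ones. Again all aged values lay inside the young range. Its log2 averaged -3.29 ± 0.43 (SD, n = 6) in young muscle, while aged muscle averaged -3.07 ± 0.17 (SD, n = 6). The difference of 0.22 was smaller than the SD of the young libraries and larger than that of the aged ones. A two-sided exact permutation test of the difference in means gave p = 0.284. Its 95% interval ran from -0.21 to 0.64, and 5 of 6 aged libraries lay above the young median. With the 3 libraries under 10 reads of miR-107-3p left out, the difference was 0.02 (two-sided exact permutation test, p = 0.913).

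As a share of the estimated reads of both miRNAs, miR-107-3p took 9.61% of 3184 reads pooled over the young libraries (exact Clopper-Pearson 95% interval 8.61 to 10.7%). In the aged libraries it took 10.6% of 5386 reads (9.83 to 11.5%). Young replicate 6 alone gave 2378 of the 3184 reads, and aged replicate 3 gave 2995 of the 5386. These pooled intervals cover counting error only, not the spread between animals, and are no comparison of the ages. Per library the share ran from 6.31% in young replicate 3 to 12.8% in young replicate 2. The interval of each of the 12 libraries held 10.3%, the share over all of them, so at this depth no library could be told apart from the pooled share. That share comes from these same libraries, mostly from young replicate 6 and aged replicate 3, so this check is weak. Reads of 21 bases or fewer fit both miRNAs, and how many such reads are in these counts is not known from the table. Their part in this share was not tested.

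**Figure D3:**
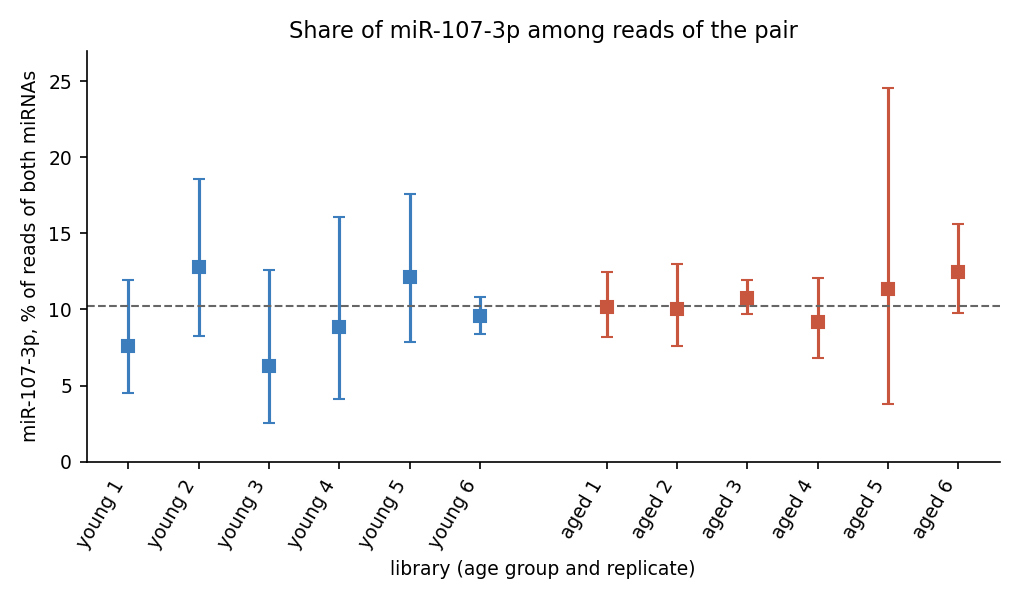
Share of miR-107-3p (vertical axis, percent) in the estimated reads of both miRNAs for each library, with exact 95% Clopper-Pearson intervals, young in blue and aged in red. The dashed line is the share over all libraries, 10.3%, taken from these same reads, and all 12 intervals cross it.

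The levels of the 2 miRNAs were also compared library by library. Pearson's r of their log2(FPKM + 48.2) was 0.336 over 12 libraries (permutation p = 0.263) and Spearman's rho was 0.287 (permutation p = 0.361). Without young replicate 4 and aged replicate 1, the libraries farthest from the median of miR-103-3p, r was 0.211. Within the young libraries r was 0.380 (exact permutation p = 0.472, n = 6) and rho 0.200 (exact permutation p = 0.714, n = 6). Within the aged libraries r was 0.437 (exact permutation p = 0.444, n = 6) and rho 0.232 (exact permutation p = 0.667, n = 6). Adjusted over these 6 relations, each p was 0.708 or 0.714.

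Of the 210 other miRNAs with a mean of at least 482 FPKM, miR-107-3p came 96th in likeness to miR-103-3p. The highest r to miR-103-3p over the 12 libraries belonged to miR-181d-5p (r = 0.80, rho = 0.762), miR-130a-3p (r = 0.777, rho = 0.846) and miR-21a-3p (r = 0.733, rho = 0.490). Without young replicate 4 and aged replicate 1 these r were 0.754, 0.812 and 0.226, so the last rested on those libraries. The highest r to miR-107-3p belonged to miR-27a-3p (r = 0.853, rho = 0.565), miR-30c-2-3p (r = 0.816, rho = 0.877) and let-7b-5p (r = 0.792, rho = 0.688). Without young replicates 1 and 3 they were 0.343, 0.749 and 0.399. These are the extremes of 210 values and are given with no p. All points share the depth and scaling of their library.

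miR-103-3p is written in 2 rows, 1 for each genomic copy, and the rows do not say which is the copy of Pank2 and which that of Pank3. The first row held 49.0% of the 7691 estimated reads over all libraries (exact Clopper-Pearson 95% interval 47.9 to 50.1%). In 11 of 12 libraries the interval of this share held 50%. The exception was aged replicate 6, with 190 reads in the first row and 266 in the second, a share of 41.7% (37.1 to 46.3%). Of the 23 other miRNAs with 2 rows that were both above 0 in every library, 18 also split their reads within 2 percentage points of 50%. Among these 18, miR-24-3p and miR-3074-5p had the same 12708 reads and the same shares, so they are not separate cases. Among the 14 such miRNAs with at least 5000 reads, the share of aged replicate 6 ran from 46.8% to 52.9%. All of these 14 had more reads than miR-103-3p. Nearest to it in reads were miR-181b-5p and miR-24-3p. Over the 12 libraries, the shallow ones included, their shares ran from 41.0% to 60.4% and from 39.8% to 54.5%. The mature strand is the same in both copies, so the rows were summed, and output of Pank2 and Pank3 cannot be told apart from them.

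**Figure D4:**
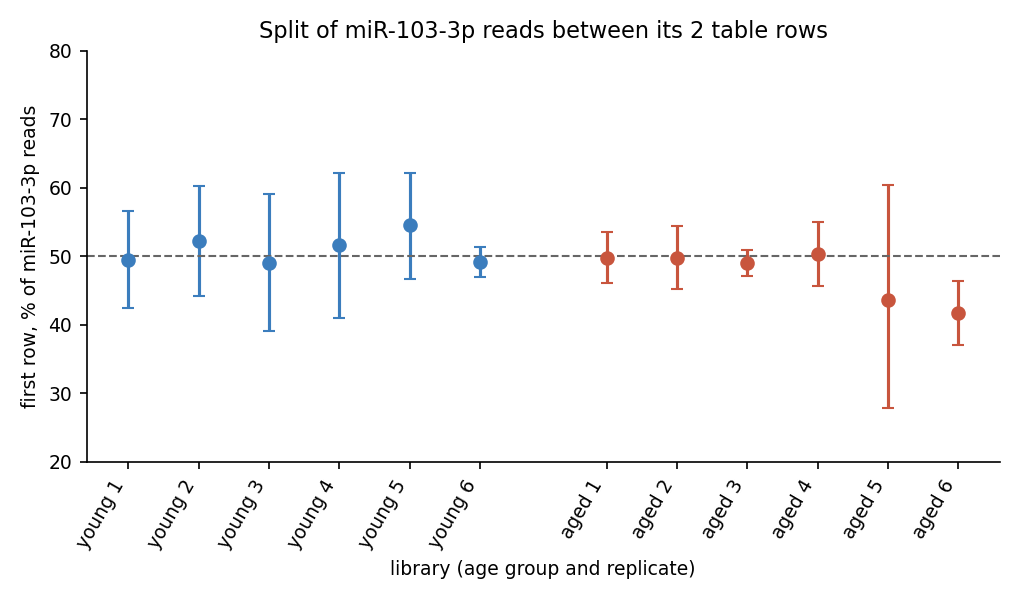
Share of miR-103-3p reads in the first of its 2 rows (vertical axis, percent) for each library, with exact 95% Clopper-Pearson intervals, young in blue and aged in red. The dashed line is an even split at 50%, and aged replicate 6, at 41.7%, is the library whose interval lies below it.

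The 5p arms could have separated the copies, but they were nearly absent. miR-103-1-5p, the arm of the Pank3 hairpin, had 2 reads, both in aged replicate 3. miR-103-2-5p, the arm of the Pank2 hairpin, had 1 read, in aged replicate 4. Together they made up 0.0390% of the 5p and 3p reads of miR-103 (3 of 7694, exact Clopper-Pearson 95% interval 0.00804 to 0.114%). miR-107-5p had no read in any library, against 879 reads of miR-107-3p, which allows a level of up to 0.341% of the 3p reads. No age comparison was possible for these arms.

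The miR-15 and miR-16 miRNAs share part of their 5′ end with the members and are known for lowering cyclins and the survival protein Bcl2. They carry the same 6 bases AGCAGC near the 5′ end, but 1 base later, so their seed is another. Capitals mark AGCAGC in the 4 most abundant of them beside a member.
miR-103-3p: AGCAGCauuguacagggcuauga
miR-16-5p: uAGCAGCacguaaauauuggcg
miR-195a-5p: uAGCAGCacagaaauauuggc
miR-322-5p: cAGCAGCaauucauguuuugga
miR-15a-5p: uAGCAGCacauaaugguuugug

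Of 11 such miRNAs in the table, 2 were at 0 in every library and 6 could be tested. In limma none of the 6 had an adjusted p under 0.05 (smallest 0.640), beside 2.9% of all 482. None had an unadjusted p under 0.05, beside 12.9% of all 482. Voom also called 0 of the 6, beside 16 of all 482. For 6 miRNAs, 0 calls lie near those shares. The permutation test called 0 too, but it called 0 of all 482. Its smallest possible p was 0.00216, so an adjusted p under 0.05 over 482 miRNAs needs many of them at that limit. There were 3 higher and 3 lower in aged muscle, beside 267 higher and 215 lower of all 482. The median log2 change was 0.01 beside 0.07 for all 482. The most abundant was miR-16-5p, at 86714 ± 15937 FPKM (SD, n = 6) in young and 86857 ± 3327 FPKM (SD, n = 6) in aged libraries. Its log2 change was 0.02 (95% interval -0.22 to 0.26). By mean FPKM over 12 libraries, miR-103-3p came next after it among the miRNAs with AGCAGC, ahead of miR-195a-5p, which averaged 7153 ± 1498 FPKM (SD, n = 6) in young muscle. The outermost changes were -0.37 for miR-15b-5p (95% interval -1.25 to 0.50) and 0.20 for miR-195a-5p (95% interval -0.12 to 0.51).

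The members were last set beside miRNAs that are linked in the literature to insulin action or glucose uptake. Of 25 in the table, 24 were tested. None had an adjusted p under 0.05 in limma (smallest 0.0975), beside 2.9% of all 482. Voom called none of the 24 either, beside 16 of all 482. The permutation test called 0 of the 24, as it called 0 of all 482. An unadjusted p under 0.05 was found for 5 of the 24, beside 12.9% of all 482. There were 19 higher and 5 lower in aged muscle, beside 267 higher and 215 lower of all 482. The median log2 change was 0.19 beside 0.07 for all 482. Every listed let-7 and miR-29 member was among the higher ones, so the count leans on those families. The 5 with an unadjusted p under 0.05 in limma were let-7a-5p with a change of 0.31 and let-7f-5p with 0.30, whose family is known to lower insulin receptor levels, miR-29b-3p with 0.69, miR-144-3p with -0.77 and miR-145a-5p with -0.43. Under quantile normalization 1 of the 24 was called, miR-145a-5p, beside 19 of all 482. Under median-of-ratios scaling it was again miR-145a-5p, beside 17 of all 482. Without young replicate 5 the 1 called was miR-29b-3p, beside 10 of all 482. In each setting, 1 call among 24 is near the share over all. miR-133a-3p, which is known to act on the glucose transporter Glut4 through Klf15, had a change of -0.17 (95% interval -0.48 to 0.14). miR-378a-3p, also made from an intron of a metabolic gene, Ppargc1b, had a value of 0.18 (95% interval -0.08 to 0.45). The change of miR-103-3p, -0.01, lay near 0 and that of miR-107-3p, 0.20, near the median of this list.

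**Figure D5:**
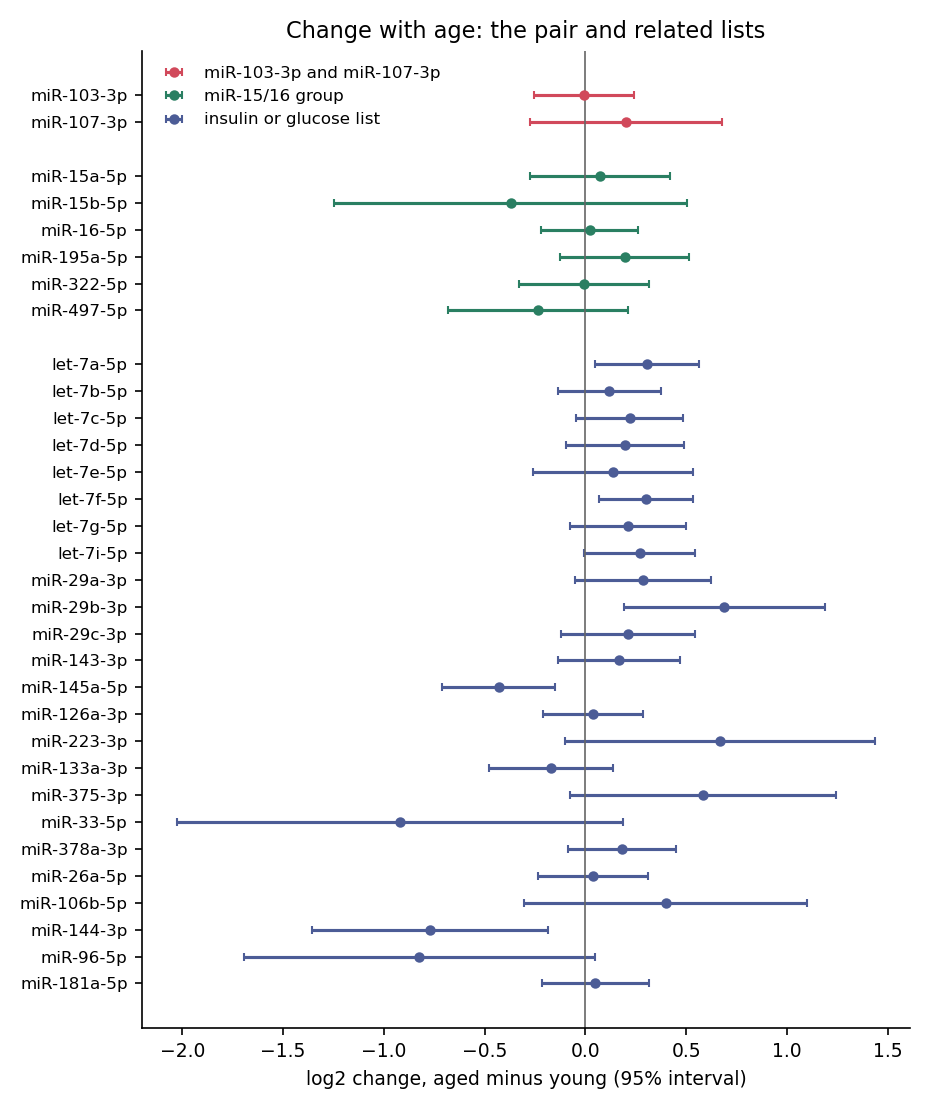
Log2 change with age (horizontal axis, aged minus young, bars are 95% intervals of the limma fit) of miR-103-3p and miR-107-3p (red), the tested miR-15 and miR-16 relatives (green) and the tested miRNAs linked to insulin or glucose (blue). The intervals of both members and of all 6 relatives span 0, while let-7a-5p, let-7f-5p, miR-29b-3p, miR-145a-5p and miR-144-3p have intervals that do not.

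Markers of muscle fibres and of other cell types were compared in the same fit. Of 5 tested muscle fibre markers, 1 passed, miR-206-3p, of regenerating muscle fibres, whose log2 change was 1.54 (adjusted p = 0.0296 in limma), beside 2.9% of all 482. That call was lost in 8 of the 12 fits that left out 1 library (young replicate 1, 3 or 5, or any aged replicate but the first), with a pseudocount of 1, without the filter, without the trend, with the depth covariate, and without the 3 shallow or the 2 deepest libraries. The permutation test did not call it either, but that test called 0 of all 482. None of 3 red blood cell, 4 white blood cell, 2 endothelial, 2 smooth muscle and 3 fibroblast markers had an adjusted p under 0.05. That stands beside 2.9% of all 482. An unadjusted p under 0.05 in limma was found for miR-144-3p of red blood cells (change -0.77) and miR-145a-5p of smooth muscle (-0.43). These are 1 of 3 and 1 of 2, beside 12.9% of all 482. In the same lists miR-144-5p changed by 0.14, miR-451a by -0.34 and miR-143-3p by 0.17, so neither list moved as a whole. No marker was at 0 in every library. Summed over each list, young libraries held 307743 to 455685 FPKM of endothelial markers and aged libraries 336491 to 382329. For white blood cells the sums were 8449 to 19468 and 11136 to 24904 FPKM, for red blood cells 5828 to 10486 and 3022 to 10507, and for fibroblasts 32455 to 49756 and 32567 to 56508. For smooth muscle they were 3896910 to 5861640 and 4795220 to 6106710 FPKM. The part of such cells in the levels of miR-103-3p and miR-107-3p was not tested.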

How the data were processed

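Small RNA of gastrocnemius muscle was sequenced from 12 mice. Per the study's methods, adaptors were trimmed and reads aligned by BWA, with its defaults, to mm10, and the authors obtained FPKM of the mature miRNAs in miRBase 20. The submitters' processing notes also name TopHat2. The deposited values are log2 of FPKM with 2 decimals, where 0 stands for no read. The use of strand and the assignment of reads that fit several places are not given in the sources used here. Here the log was undone, the rows of a miRNA were summed, and reads per library were estimated from the steps of low values with RefSeq lengths (22 bases for miRNAs without one, which affects the totals).

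The scale of the tests was log2(FPKM + 48.2), 48.2 being the smallest value above 0 of each library, taken as the median of the 12, with limma 3.58.1 in R 4.3.3 (trend, no covariate, two-sided, Benjamini-Hochberg over 482 miRNAs). The ratio was tested by exact permutation, and its interval by inverting that test. Python 3.11.15, SciPy 1.17.1 and pandas 2.3.3 were used. The fit was checked on simulated data. The members and lists were chosen with earlier results of these data known. Besides the members, named miRNAs are those of the lists, the neighbours in level and the 3 most alike by r; the within-group spread and the split of rows were examined after values were seen. Alternatives were other pseudocounts, filters, scalings, a replicate block, no trend, a permutation test, a depth covariate, separate rows and leaving out each library. Voom and leaving out 3 shallow or 2 deep libraries were chosen after seeing the data.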

Additional observations from a re-analysis of the deposited data

Results flagged for a closer look

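As a share of the summed FPKM of a library, miR-103-3p was 0.0475% in aged replicate 1, against 0.0304 to 0.0354% in the other aged libraries, a gap beyond the 95% limit of Dixon's test. Of 14 groups of 6 values examined, this was the 1 that passed the limit, where chance gives 0.7. In FPKM the same library had 18886, the highest of its group. The change of miR-103-3p without it was -0.06 (limma adjusted p = 0.885).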

How the results depend on the processing

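In none of the alternatives did either member or their ratio pass 0.05. The change of miR-103-3p was so near 0 that its sign turned: it was 0.0046 with depth as a covariate, 0.0928 with separate rows (the row with the higher mean), 0.0297 with voom and 0.0794 without the 3 shallow libraries, and -0.0645 to 0.0478 over the 12 fits that left out 1 library, 6 of them above 0. Over all alternatives fitted with limma its adjusted p was 0.756 (quantile normalization) to 0.997 (depth covariate), and by the permutation test it was 0.998. The change of miR-107-3p stayed above 0, from 0.07 to 0.30 when 1 library was left out and from 0.10 (3 shallow libraries left out) to 0.32 (quantile normalization) otherwise. When 1 library was left out, the difference in log2 ratio ran from 0.09 (without young replicate 3, exact permutation p = 0.565) to 0.32 (without young replicate 2, exact permutation p = 0.0996), and it was 0.11 against the row of miR-103-3p with the higher mean and 0.02 without the 3 shallow libraries. The number of miRNAs with an adjusted p under 0.05, 14, was 6 with a pseudocount of 1, 7 without a filter, 8 with a filter on the mean, 8 with the depth covariate, 8 without the 3 shallow libraries, 0 by the permutation test and 6 to 15 when 1 library was left out (6 without young replicate 3 or aged replicate 2, 3 or 4, 8 without young replicate 1 or aged replicate 5, 9 without aged replicate 1 or 6); the causes were not tested. More miRNAs passed under quantile normalization (19), median-of-ratios scaling (17) and voom (16). Separate rows gave 10, as did leaving out the 2 deepest libraries. Dropping the trend gave 11, as did raising the pseudocount 10 times. The causes of these counts were not tested either. The replicate block left the count at 14 and the changes of miR-103-3p and miR-107-3p at -0.01 and 0.20. It left the ratio at 0.22 (exact sign permutation p = 0.313). No sign was seen that the numbers pair the animals: same-numbered libraries correlated in their deviations from the group mean at r from -0.09 to 0.09, and none correlated best with its own number. The highest r between any young and any aged library was 0.156, so this check is weak and cannot show that pairing is absent. Depth limits miR-107-3p, with under 10 reads in 3 libraries, and the 5p arms, with 3 reads in all.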
